A study of Mus musculus with 127 samples.

Results

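Among the mouse striatal neurons of the series, each sequenced as a single cell, 16 carried high levels of genes that mark striatal interneurons and 97 did not. Another 14 of the 127 cells were astrocytes. The 16 were chosen by a sum over 9 marker genes, Sst, Npy, Nos1, Pvalb, Calb2, Kit, Chat, Th and Vip. A neuron entered when these genes together reached at least 200 CPM (each gene's counts scaled to a common total per cell). Since the 9 genes chose the neurons, their levels are given as a description, with no test.

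The striatum is built mainly of GABA-releasing projection neurons, which use DARPP-32 (Ppp1r1b) and dopamine receptors to relay cortical and dopaminergic input. A minority of its cells are interneurons, which stay within the striatum and are told apart by peptides and calcium-binding proteins. Somatostatin (Sst) and neuropeptide Y (Npy) mark one class of interneuron and parvalbumin (Pvalb) another, whereas calretinin (Calb2), acetylcholine synthesis (Chat) and tyrosine hydroxylase (Th) mark others. The factor Lhx6 is known to specify the interneurons that make somatostatin or parvalbumin, and Prox1, Sp8 and Nr2f2 mark interneurons of another embryonic origin.

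The neurons came from newborn wild type C57BL/6 mice and grew on small islands of cortical astrocytes. Lentivirus delivered human huntingtin exon 1 fused to GFP, with 25 glutamines (25Q) or an expanded tract of 97 (97Q), or an empty vector was used. The 25Q and 97Q neurons received DMSO vehicle or RGFP109, which inhibits HDAC1 and HDAC3, enzymes that remove acetyl marks from histones, at 100 nM from day 6 in culture and again every 3 days. At day 15 each neuron was recorded and its content drawn into the patch pipette for RNA sequencing (Patch-seq). The groups held 29 neurons of 25Q vehicle, 23 of 25Q RGFP109, 26 of 97Q vehicle and 26 of 97Q RGFP109, spread over batches 1, 2 and 3. The 9 empty vector neurons, labelled as vehicle treated, and the 14 astrocytes were all in batch 3. The labels name neither the mice nor the cultures behind a cell, nor the promoter of the vectors, so p-values here measure only the spread between sets of cells that share a group and a batch.

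Neurons had 999700 to 8842811 counts, with a median of 4245947. The marker-high neurons had a median of 4523388 counts and 11874 genes with a count, and the other neurons 4100956 counts and 11891 genes, so depth was alike in both classes. Their pipette content can hold RNA of the feeder astrocytes. The summed level of 22 astrocyte markers ran from 49.5 to 5592 CPM in marker-high neurons (median 1236) and from 17.2 to 11282 CPM in the others (median 795). It was 13163 to 39130 CPM in the astrocytes. The 18 neurons at or above 2356 CPM, which is 10% of the astrocyte median, are called glial-rich, and 3 of them were marker-high.

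A single gene supplied most of the marker sum in each of the 16 neurons. Calb2 (GRCm38 chromosome 8, 110137502 to 110168210, minus strand) led in 11 neurons, with 202 to 2889 CPM. The receptor tyrosine kinase gene Kit (chromosome 5, 75574916 to 75656722, plus strand) led in 3 neurons, with 565 to 1537 CPM. Npy (chromosome 6, 49822710 to 49829507, plus strand) led in 1 neuron and Sst (chromosome 16, 23889573 to 23890958, minus strand) in 1. The leading gene made up 74.6 to 100% of the sum, with a median of 97.9%. The remaining rule genes were scarce: Pvalb reached at most 13.4 CPM, Nos1, the neuronal nitric oxide synthase gene, 47.99 CPM and Chat 4.98 CPM, and Th and Vip had no count in any of the 16.

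**Figure D1:**
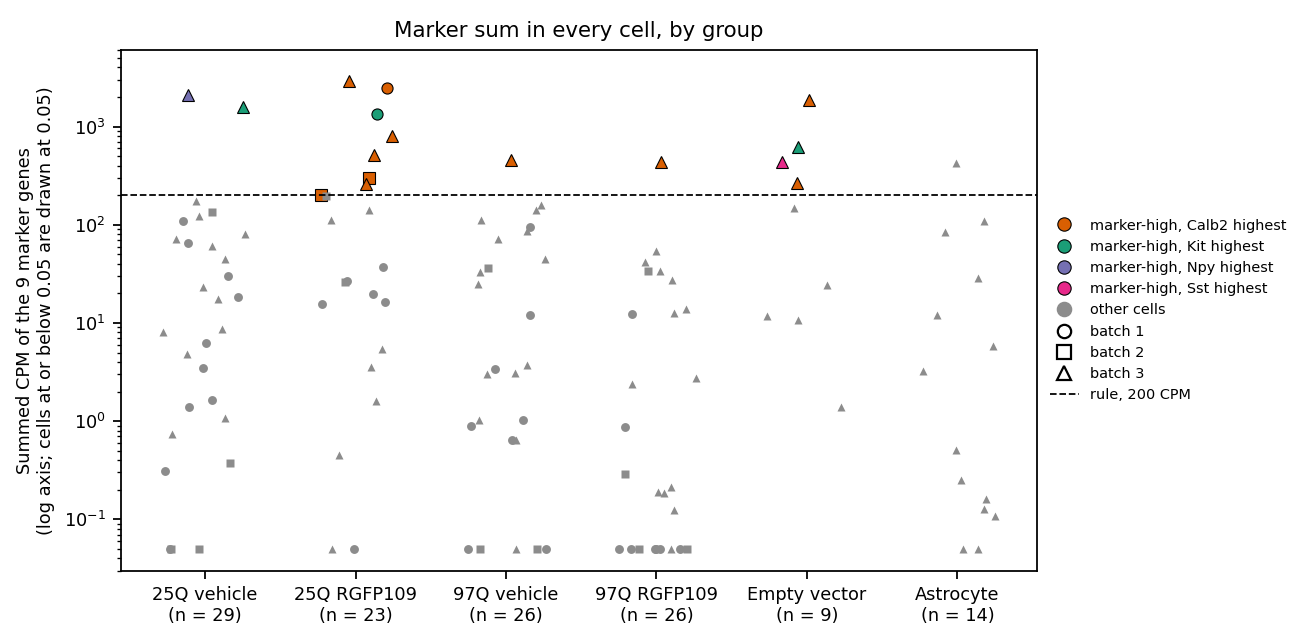
Summed CPM of the 9 marker genes (log axis) in each of the 127 cells by group, with the shape giving the batch and the colour the leading gene of marker-high neurons; the dashed line is the 200 CPM of the rule. Of the 16 marker-high neurons, 8 lie in 25Q RGFP109 and 1 in each 97Q group.

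The sum had no gap at the threshold. Just inside lay 25Q RGFP109 neuron 11 at 202 CPM, 25Q RGFP109 neuron 15 at 262 CPM and empty vector neuron 6 at 267 CPM. Just outside lay 25Q RGFP109 neuron 9 at 198 CPM and 25Q vehicle neuron 19 at 174 CPM, both led by Calb2, and 97Q vehicle neuron 20 at 159 CPM, led by Th. Among the other 97 neurons the median sum was 5.42 CPM, and 45 had at least 10 CPM. A floor of 100 CPM would have taken 27 neurons and one of 500 CPM 9.

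Rule genes were not found in neurons alone. Of the 14 astrocytes, 4 had at least 10 CPM of Npy, 2 at least 10 CPM of Kit and 0 of Calb2. By an approximate 95% limit, 0 of 14 allows a share of up to 21.4%. Astrocyte 9 had 428 CPM of Npy and would have passed the rule.

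The 16 neurons fell into unlike profiles. The Npy-led neuron, 25Q vehicle neuron 27, had 1733 CPM of Npy, 349 CPM of Sst and 13.4 CPM of Pvalb. It also had 218 CPM of Lhx6, 28.6 CPM of Sox6 and 138 CPM of Maf, 3 transcription factor genes of interneurons that make somatostatin or parvalbumin. Other lineage factor genes were near 0, with Satb1, Nr2f1 and Sp9 at 0.157 CPM and no count of Sp8 or Prox1. Of 28 interneuron lineage factors this neuron had 7 at 10 CPM or more, against medians of 7 in marker-high and 6 in other neurons. Its neurexophilin gene Nxph1 stood at 1225 CPM and the neuregulin receptor gene Erbb4 at 163 CPM. The projection neuron factor Meis2 had 2.20 CPM there and Ppp1r1b 0.786 CPM. Other projection neuron markers were present, with 10 of 45 at 10 CPM or more and a sum of 3142 CPM, against a median of 3019 CPM in the other neurons.

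The 3 Kit-led neurons, 25Q vehicle neuron 23, 25Q RGFP109 neuron 3 and empty vector neuron 8, shared Erbb4 at 220, 149 and 115 CPM and the cholecystokinin gene Cck at 66.1, 292 and 432 CPM. Among the other 13 marker-high neurons Cck did not exceed 1.17 CPM. Prox1 stood at 132 and 225 CPM in the first and second of these neurons and had no count in the third. Empty vector neuron 8 had instead 89.1 CPM of Npas1, 90.5 CPM of Nr2f2 and 616 CPM of the extracellular matrix gene Reln. Lhx6 had no count in any of the 3, and the dopamine receptor gene Drd1 stood at 180, 297 and 0.355 CPM. The first and second were glial-rich, with astrocyte sums of 3265 and 5592 CPM, and the part of that RNA in their profile was not tested.

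The 11 Calb2-led neurons shared some of these genes and not others. Reln reached 10 CPM in 6 of 11 and Nxph1 in 4 of 11, and a median of 8 (3 to 10) of the 39 interneuron markers outside the rule did so. At least 10 CPM of Lhx6 were found in 1 of the 11, 25Q RGFP109 neuron 4 at 32.3 CPM, which also had 574 CPM of Sst. Prox1 and Npas1 reached 10 CPM in 0 of 11 and Erbb4 in 2. The transcription factor genes Zic1 and Zic4 reached it in 10 and 8 of 11, Meis2 in 9 of 11, and Pnoc, which encodes the opioid-like peptide nociceptin, in 10 of 11. Meis2 ran from 0 to 467 CPM, with a median of 206 CPM, against a median of 187 CPM in the other 97 neurons. Zic1 ran from 0 to 348 CPM, with a median of 169 CPM, and 37 of the 97 other neurons also had at least 10 CPM of it. 25Q RGFP109 neuron 11 stood apart, with no count of Zic1, Zic4 or Meis2, 170 CPM of the nuclear receptor gene Nr2f1 and 116 CPM of Nr2f2.

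The Sst-led neuron, empty vector neuron 3, had 432 CPM of Sst but no count of Lhx6 and 0.183 CPM of Sox6. Projection neuron genes were present, with 379 CPM of Meis2, 194 CPM of Ppp1r1b and 77.97 CPM of Drd1. It had 3190 CPM of the synaptic vesicle gene Synpr, the highest value among the marker-high neurons.

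**Figure D2:**
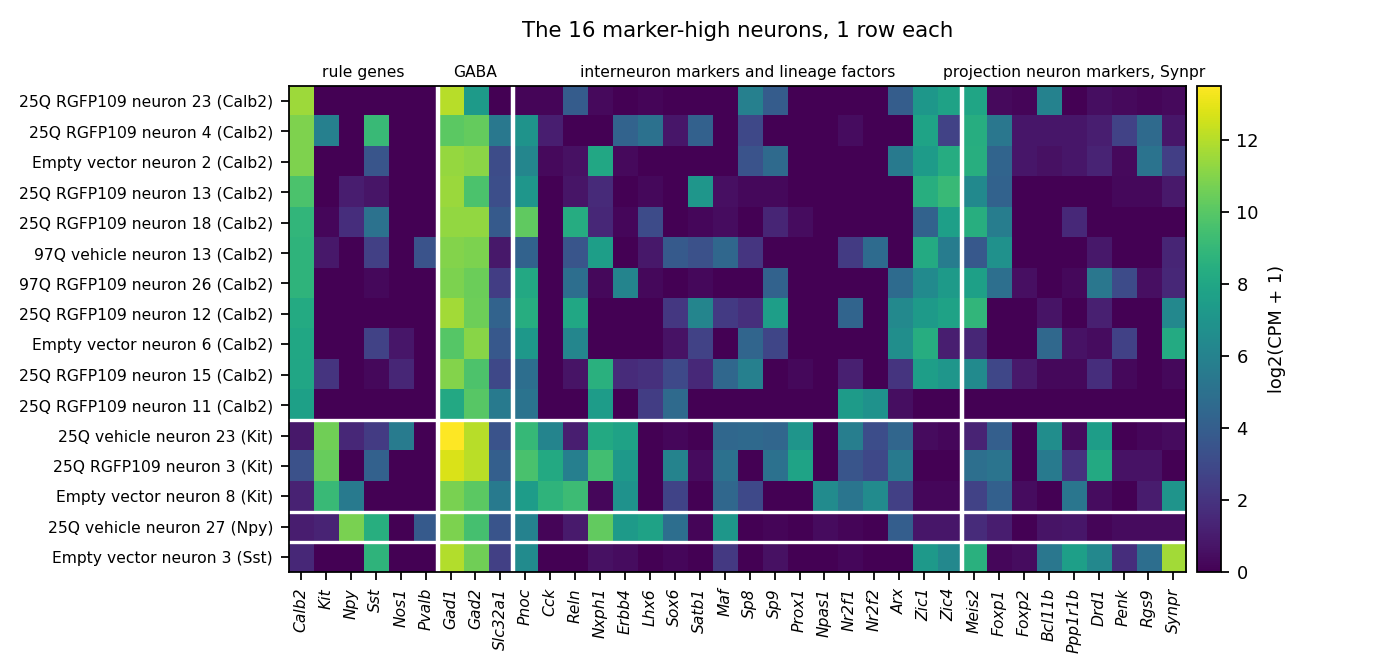
Level of selected genes, as log2(CPM + 1) by colour, in each of the 16 marker-high neurons (rows, with the leading gene in brackets), ordered by leading gene. Lhx6 is bright in the Npy-led neuron (218 CPM), Cck in the 3 Kit-led neurons (66.1 to 432 CPM), and Zic1 in 10 of the 11 Calb2-led neurons.

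The label interneuron-like was checked against 3 lists of markers. Of 39 interneuron markers outside the rule, marker-high neurons had a median of 8 at 10 CPM or more (3 to 13), and the other neurons 5 (0 to 12). Of 28 interneuron lineage transcription factors they had a median of 7 (4 to 12), against 6 (1 to 14). Of 45 projection neuron markers they had a median of 14 (8 to 18), against 16 (6 to 29). Summed levels of the first 2 lists were further apart. Their medians were 1290 CPM in marker-high and 449 CPM in other neurons for the interneuron markers, and 808 and 278 CPM for the lineage factors. For the projection neuron markers they were 3028 and 3019 CPM. These medians pool all groups. The ranges of both classes overlapped for each of the 3 lists, by count and by sum. The 4 neurons led by Npy or Kit had 1.51 to 29.7 CPM of Meis2, whereas 9 of the 11 led by Calb2 had at least 10 CPM and up to 467 CPM. The class is therefore called marker-high neurons here and given no cell type name.

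The share of marker-high neurons was uneven over groups. It was 8 of 23 in 25Q RGFP109 (34.8%, exact Clopper-Pearson 95% interval 16.4 to 57.3%) and 2 of 29 in 25Q vehicle (6.90%, 0.846 to 22.8%). In both 97Q RGFP109 and 97Q vehicle it was 1 of 26 (3.85%, 0.0973 to 19.6%). The empty vector group held 4 of 9 (44.4%, 13.7 to 78.8%), against 8 of 55 (14.5%) in the remaining groups of batch 3. By batch, 2 of 34 neurons were marker-high in batch 1, 2 of 15 in batch 2 and 12 of 64 in batch 3. Within 25Q RGFP109 the shares were 25.0, 50.0 and 36.4% in batches 1, 2 and 3, all above those of the 3 other drug and repeat groups in the same batch, which ran from 0 to 13.3%. The intervals cover the counting of cells only.

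**Figure D3:**
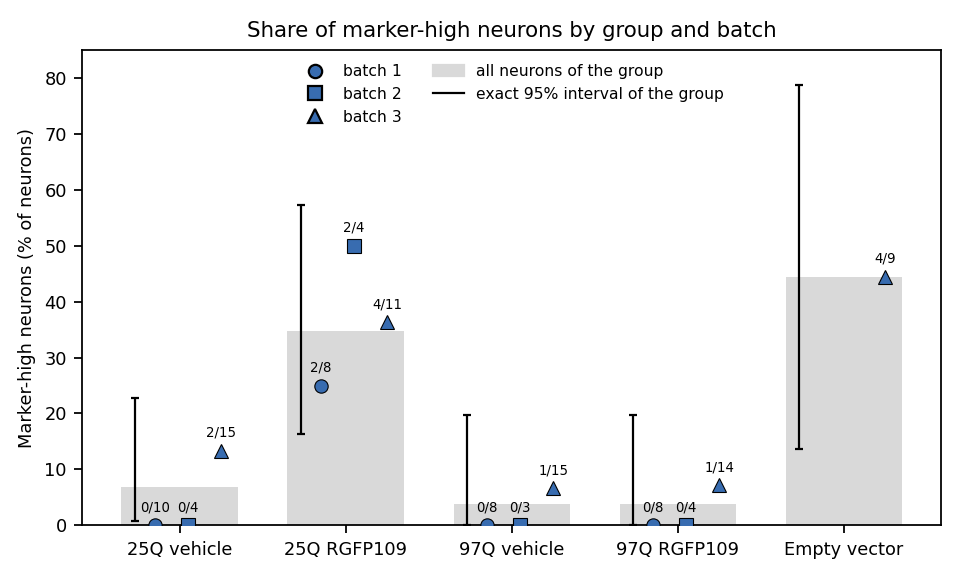
Share of marker-high neurons (%) by group, with bars for all neurons of a group, vertical lines for the exact 95% interval, and points for each batch with the neurons counted. The 25Q RGFP109 points lie at 25.0 to 50.0% and those of the other drug and repeat groups at 0 to 13.3%.

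Over the sets of neurons that share a group and a batch, the mean share was 2.30% ± 3.57 in 97Q and 20.8% ± 20.2 in 25Q (SD, n = 6 sets each). The difference of -18.5 percentage points had p = 0.0833 in a two-sided exact permutation test within batch, and 0.167 after Benjamini-Hochberg adjustment over 2 comparisons. Under RGFP109 the mean was 19.8% ± 20.8 and under vehicle 3.33% ± 5.58 (SD, n = 6 sets each). That difference of 16.4 points had p = 0.167 in the same exact permutation test, and 0.167 adjusted. Neither passed 0.05. The 216 arrangements allow a p of 0.00926 only where shares are not tied. Here all sets of batches 1 and 2 but those of 25Q RGFP109 were tied at 0%. In batch 3 both 25Q sets lay above both 97Q sets, so the observed split by repeat length was already the most extreme. No arrangement of these shares could give a p below 0.0833, so at 200 CPM the test could not pass 0.05. With a floor of 100 CPM the difference between 97Q and 25Q was -30.4 points with p = 0.0185 in the exact permutation test, so this call depends on the floor.

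Which other genes differed between marker-high neurons and the others was asked within group and batch. Counts were summed over the neurons of a class in each of the 7 sets that held both classes. These were the 3 batches of 25Q RGFP109 and batch 3 of 25Q vehicle, 97Q RGFP109, 97Q vehicle and the empty vector. All 16 marker-high neurons and 60 others entered, and 37 others of sets without a marker-high neuron did not. Each set was a block, and the quasi-likelihood test of edgeR, adjusted by Benjamini-Hochberg, called 0 of 13457 genes (0.0%). The spread was large, with a common biological coefficient of variation of 1.12. The genes below are therefore given by their values, and none of them passed the threshold. Without batch 3, which left 2 sets and 4 marker-high neurons, edgeR called 7 genes, and without the empty vector neurons 1.

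At an unadjusted p under 0.05, edgeR had 674 genes (5.01%), of which 108 were higher (0.803%) and 566 lower (4.21%) in marker-high neurons. DESeq2 on the same sums called 854 genes, 57 higher (0.424%) and 797 lower (5.92%), and limma voom called 4, all lower. A marker-high sum held 1 to 4 neurons and 11309 to 18129 genes with a count, whereas the sum it was set against held 2 to 14 neurons and 12252 to 26110 genes. The log2 fold change (log2FC, marker-high minus other) was above 0 for 34.9% of all genes and below 0 for 65.1%, with a median of -0.35. When every neuron weighed the same, by limma on mean log2(CPM + 1), the median was 0.07 and the split was 489 higher (3.63%) and 392 lower (2.91%). The balance of higher and lower genes thus turned with the weighting, and values under both weightings are given below for most lists. The fit without the glial-rich neurons rests on 6 sets, 13 marker-high and 40 other neurons. It lost the whole set of 97Q vehicle batch 3, whose only marker-high neuron was glial-rich, so its values move with that set as well. Meis1, Rgs9, Rarb, Strip2, Meis2, Pde10a, Penk, Drd1 and Pnoc, and the genes of single neurons above, were picked after their values were seen.

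Most projection neuron markers, taken gene by gene, stood lower in marker-high neurons. The median of their summed level did not, at 3028 CPM in the 16 marker-high and 3019 CPM in the 97 other neurons. The means were 3248.5 and 4230.6 CPM. These sums pool all groups and batches, whereas the log2FC compares the classes within sets. Of 34 tested, 30 had a log2FC below 0, against 65.1% of all genes. At p under 0.05 by edgeR 9 were lower, against 4.21% of all genes. Their median log2FC was -1.48, against -0.35 for all genes. With neurons weighted equally it was -0.62, with 22 of 34 lower. Of all 13457 genes 6078 were lower by that weighting, with a median of 0.07. Without the glial-rich neurons 27 of 33 were lower with a median of -2.02, and with the Calb2-led neurons alone 26 of 31 with a median of -1.74. The list was chosen with earlier results of these data known.

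Foxp2, a forkhead factor of projection neurons (chromosome 6, 14901349 to 15441977, plus strand), had sums of 0, 0.232 and 0.470 CPM (lowest, median and highest of 7) in marker-high neurons. The other neurons of the same sets had 0.831, 47.8 and 132 CPM. Foxp2 was lower in 7 of 7 sets, as were 1.81% of all genes tested. Its log2FC was -7.44 (SE 1.14), with an adjusted p of 0.354 (edgeR, Benjamini-Hochberg), the lowest value of the fit, shared with Gm43662. By limma voom it was -6.44 with an adjusted p of 0.0205. Reads came from few neurons, with at least 10 CPM in 0 of 16 marker-high and 8 of 60 other neurons (13.3%). By an approximate 95% limit, 0 of 16 allows a share of up to 18.8%, so a difference from the 13.3% of the fit was not detectable with 16 neurons. Among all 97 other neurons 24 reached 10 CPM, but these include sets without a marker-high neuron.

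The retinoid receptor gene Rxrg (chromosome 1, 167598384 to 167639623, plus strand) had sums of 0, 0 and 0.790 CPM in marker-high and 0, 22.8 and 43.2 CPM in the other neurons. It was lower in 6 of 7 sets and had no count in either class of 25Q RGFP109 batch 2. At least 10 CPM were found in 0 of 16 and 20 of 60 neurons (33.3%). Its log2FC was -7.69 (SE 1.54), with an adjusted p of 0.660 by edgeR with Benjamini-Hochberg adjustment. With neurons weighted equally the difference was -1.64, and for Foxp2 it was -1.34. The size of both changes thus depends on how sums near 0 are treated, while the sign was the same.

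Ppp1r1b, which encodes DARPP-32 (chromosome 11, 98348404 to 98357796, plus strand), had sums of 0, 0.558 and 64.02 CPM in marker-high and 1.25, 21.0 and 356 CPM in the other neurons. The highest of the marker-high sums was that of the empty vector, which held the Sst-led neuron with 194 CPM. In the remaining 6 sets the marker-high sum was lower. At least 10 CPM were found in 2 of 16 and 19 of 60 neurons, and the log2FC was -6.06 (SE 1.45).

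The factor gene Meis1 had 3 reads in all 16 marker-high neurons together. At least 10 CPM were found in 0 of 16 marker-high and 12 of 60 other neurons. The G protein regulator gene Rgs9 had a log2FC of -5.62 (SE 1.71), the retinoic acid receptor gene Rarb -4.54 (SE 1.48) and Strip2 -4.14 (SE 1.52). Meis2, shared more widely, was less apart, at -1.79 (SE 0.867). The phosphodiesterase gene Pde10a went the other way, at 1.70 (SE 0.913), and was among the 4 of 34 markers with a log2FC above 0. The peptide and receptor genes that split projection neurons into their pathways were rare in both classes. Penk, the enkephalin gene, reached 10 CPM in 0 of 16 and 8 of 60 neurons, and Drd1 in 4 of 16 and 13 of 60.

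Genes of GABA synthesis, packaging and uptake were more often above 0 than all genes, with smaller values at a floor of 100 CPM. Of 15 such genes, 11 had a log2FC above 0, against 34.9% of all genes. At p under 0.05 by edgeR 3 were higher, against 0.803% of all genes. Their median was 0.44, or 0.55 with neurons weighted equally, and 0.31 without the glial-rich neurons. With a floor of 100 CPM, 7 were higher and 8 lower, with a median of -0.12 and 0 higher at p under 0.05 by edgeR. Of all 12991 genes tested at that floor, 4362 were higher, with a median of -0.36. Gad1, the gene of the main GABA-making enzyme (chromosome 2, 70553072 to 70602014, plus strand), had sums of 1848, 2309 and 6535 CPM in marker-high and 1049, 1633 and 3525 CPM in the other neurons. It was higher in 5 of 7 sets and lower in 25Q RGFP109 batch 3 and in the empty vector set, with a log2FC of 0.69 (SE 0.321). Without the glial-rich neurons and the 97Q vehicle set, where Gad1 differed by 0.98, its log2FC was -0.016. The parts of the neurons and of the set in that move were not tested. Gad2, the gene of the synaptic form (chromosome 2, 22622205 to 22693874, plus strand), had 1045, 1705 and 3000 CPM against 552, 1061 and 1486 CPM. It was higher in 6 of 7 sets, with a log2FC of 0.79 (SE 0.299).

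Single neurons of 97Q show the same order with 1 neuron each. The marker-high neuron of 97Q vehicle had 2070 CPM of Gad1, and the 25 others ran from 5.56 to 2646 CPM with a median of 633. That of 97Q RGFP109 had 1848 CPM, and its 25 others had a median of 491 CPM. In 25Q RGFP109 the 8 marker-high neurons had a median of 2679 CPM and the 15 others 1956 CPM. In the empty vector group the order was the opposite, with medians of 2182 CPM in 4 marker-high and 3507 CPM in 5 other neurons. Medians over all neurons of a class, 2310 and 849 CPM, mix these groups, because 50 of the 97 other neurons and 2 of the 16 marker-high neurons carried 97Q.

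Abat, the transaminase that degrades GABA (chromosome 16, 8513429 to 8621568, plus strand), was higher in 7 of 7 sets, as were 0.594% of all genes tested. Its sums were 155, 487 and 599 CPM against 95.4, 255 and 400 CPM, with overlapping ranges, and its log2FC was 1.01 (SE 0.292). Slc32a1, which loads GABA into vesicles, was low in both classes, with median sums of 10.2 and 9.92 CPM and a log2FC of -0.19 (SE 1.02). Hap1, a huntingtin-associated protein gene placed in the GABA receptor list, had 0.94 (SE 0.342), but -0.74 without the Calb2-led neurons. The receptor subunit gene Gabra3 had -4.05 (SE 1.49), and that list had a median of -0.27 over 23 genes, with 17 lower. Endogenous mouse Htt had median sums of 16.0 and 23.3 CPM and a log2FC of -0.50 (SE 0.957). The human transgene was not analysed here.

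**Figure D4:**
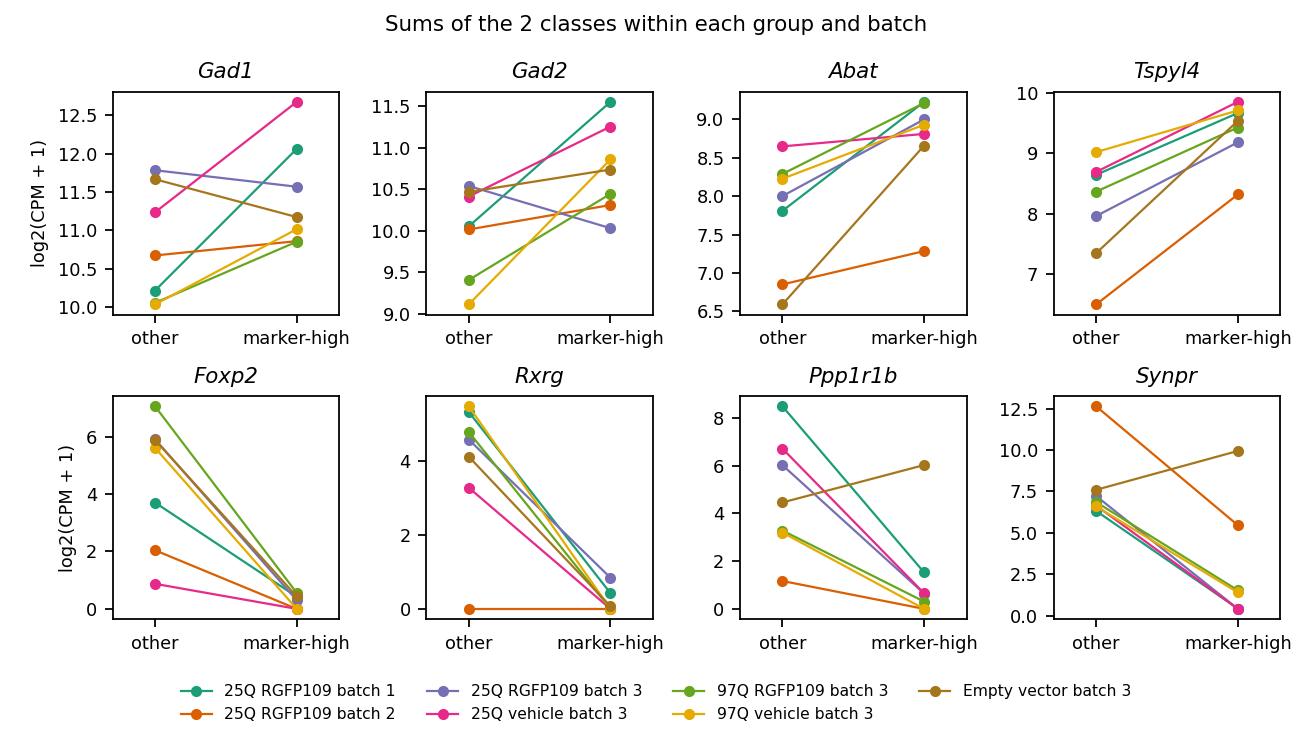
Level of 8 genes, as log2(CPM + 1) of summed counts, in other and marker-high neurons of each of the 7 sets (lines). Lines slope upwards to the right in 7 of 7 sets for Abat and Tspyl4 and downwards in 7 of 7 for Foxp2; for Ppp1r1b and Synpr they slope downwards in 6 sets and upwards in the empty vector set.

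Interneuron markers outside the rule were more often above 0 than all genes in the settings below, but their median changed sign. Of 18 tested, 12 had a log2FC above 0, against 34.9% of all genes, with a median of 0.36. With neurons weighted equally 17 of 18 were higher, against 7379 of all 13457 genes. Without the empty vector neurons 9 were higher and 9 lower (median -0.10), against 4533 of 13222 genes higher (median -0.42). With a floor of 100 CPM 7 were higher and 8 lower (median -0.56), against 4362 of 12991 genes higher (median -0.36). The interneuron gene Elfn1, a synaptic adhesion protein, had 2.32 (SE 1.35) and Nxph1 2.71 (SE 1.53). Pnoc had at least 10 CPM in 15 of 16 marker-high and 33 of 60 other neurons, with a log2FC of 1.11 (SE 0.747). Of 21 lineage transcription factors, 9 were higher and 12 lower, with a median of -0.17, but 16 of 21 were higher with neurons weighted equally (median 0.37). Dlx1, a homeobox factor of forebrain GABA neurons, had 1.87 (SE 0.899) and was higher in 6 of 7 sets. Etv1 had -4.53 (SE 1.93). Lhx6 had -1.31 (SE 1.80) and reached 10 CPM in 2 of 16 and 7 of 60 neurons, and it stood at 0.88 in the fit without the glial-rich neurons and the 97Q vehicle set, where it differed by -4.53.

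**Figure D5:**
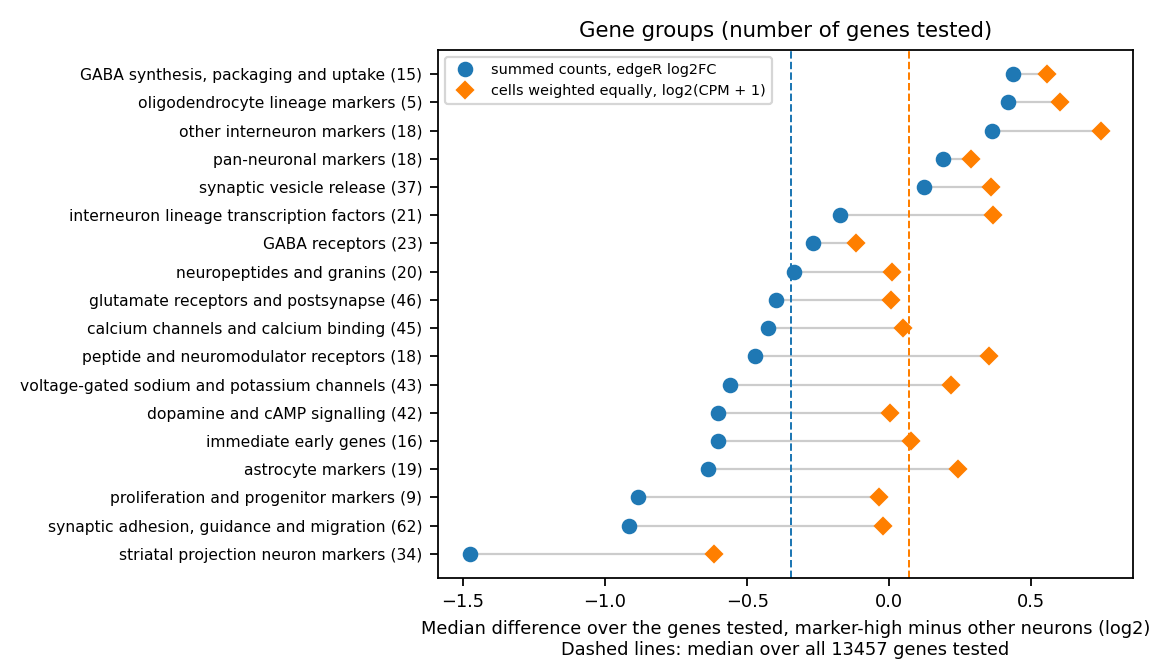
Median difference between marker-high and other neurons (log2) over the tested genes of each list with at least 5 of them, from summed counts (circles) and with neurons weighted equally (diamonds); dashed lines are the medians of all 13457 genes. Projection neuron markers lie lowest by both measures, at -1.48 and -0.62.

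Synaptic genes were split. Of 37 genes of vesicle release, 20 were higher and 17 lower, with a median of 0.12. Synpr, the gene of synaptoporin (chromosome 14, 13284780 to 13616340, plus strand), had sums of 0.325, 1.64 and 983 CPM in marker-high and 78.8, 115 and 6368 CPM in the other neurons. It was lower in 6 of 7 sets, with a log2FC of -6.66 (SE 1.28). The exception was the empty vector set, where the Sst-led neuron alone had 3190 CPM. Without the empty vector neurons edgeR called Synpr, with a log2FC of -7.32 and a Benjamini-Hochberg adjusted p of 0.00102, against 0.602 with them. The syntaxin gene Stx1a had 1.19 (SE 0.426) and was higher in 7 of 7 sets. Of 62 genes of adhesion, guidance and migration, 47 were lower (median -0.91), but 31 were higher and 31 lower with neurons weighted equally. The semaphorin receptor gene Plxna2 had -1.83 (SE 0.647) and the contactin gene Cntn6 -6.66 (SE 2.43).

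The other signalling lists lay near the median of all genes. Among 20 neuropeptide and granin genes 7 were higher (median -0.33), with the neurotensin gene Nts at -7.10 (SE 1.86) and the growth factor gene Igf1 at 4.10 (SE 1.85). Nts stood at 4.01 without batch 3, and Igf1 at -1.07 with the Calb2-led neurons alone. Among 18 peptide and neuromodulator receptors 6 were higher (median -0.47), with the serotonin receptor gene Htr7 at -6.05 (SE 2.07; 0.54 without batch 3) and the muscarinic receptor gene Chrm1 at -4.92 (SE 1.89). Among 42 dopamine and cAMP signalling genes 12 were higher (median -0.60), and Rasd1, a small G protein gene, had -6.72 (SE 1.85). Each of these lists had a median of 0 or above with neurons weighted equally, at 0.01, 0.35 and 0.00.

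Channels gave a like picture. Of 43 sodium and potassium channel genes 14 were higher (median -0.56, or 0.22 with equal weights), with Scn9a at -6.18 (SE 2.11) and the calcium-activated potassium channel gene Kcnma1 at -2.08 (SE 0.739). Of 45 calcium channel and calcium-binding genes 12 were higher (median -0.43, or 0.05), with Cacna2d3 at -4.87 (SE 2.37) and the calcium pump gene Atp2b3 at -4.11 (SE 2.03). Of 46 glutamate receptor and postsynaptic genes 16 were higher (median -0.40, or 0.01), with the scaffold genes Dlgap3 at -3.37 (SE 1.23) and Dlg2 at -1.51 (SE 0.619). Of 16 immediate early genes 5 were higher (median -0.60, or 0.08), with Nr4a1 at -4.68 (SE 2.53) and Egr3 at -4.16 (SE 2.61). Only the projection neuron markers, among these lists, kept a median below -0.5 under both weightings.

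None of the tested markers of other cells passed the test. Of 18 pan-neuronal genes 10 were higher (median 0.19), with Eno2 at 0.54 (SE 0.249) and Mapt, the tau gene, at 0.54 (SE 0.308). Of 19 astrocyte markers 5 were higher (median -0.64), or 12 with neurons weighted equally (median 0.24), with Acsbg1 at -3.26 (SE 1.88) and the connexin gene Gja1 at -3.45 (SE 2.15). Few genes of the other lists could be tested. For oligodendrocyte lineage 3 of 5 were higher (Olig2 1.91, SE 1.97, and Cnp 0.42, SE 0.505), and for microglia 1 of 3 (Cd68 -0.49, SE 1.42, and Csf1r 0.31, SE 1.64). With neurons weighted equally 3 of 3 microglia markers were higher (median 0.95, against -0.035). For endothelial and mural cells 0 of 2 were higher (Col1a1 -4.81, SE 3.02, and Acta2 -0.37, SE 1.38), and for cortical glutamatergic neurons 0 of 2 (Cux1 -0.61, SE 0.582, and Nrn1 -1.38, SE 2.04). For proliferation 1 of 9 was higher (Top2a -4.97, SE 1.40, and Mki67 -4.54, SE 2.82; median -0.88), or 4 of 9 with neurons weighted equally (median -0.037). The part of glial RNA in the class differences was not tested beyond leaving out the glial-rich neurons, which also left 0 genes called.

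Outside the lists the genes with the smallest p were named in each direction. Tspyl4, a nucleosome assembly family gene (chromosome 10, 34297442 to 34301320, plus strand), had sums of 319, 742 and 923 CPM in marker-high and 89.7, 329 and 518 CPM in the other neurons. It was higher in 7 of 7 sets, by 0.69 to 2.19 in log2(CPM + 1), and every marker-high neuron had at least 150 CPM. Its log2FC was 1.36 (SE 0.240), with an adjusted p of 0.576 by edgeR with Benjamini-Hochberg adjustment. The antisense gene Gm47512 (chromosome 10, 34295912 to 34298907, minus strand) overlaps it and had 1.43 (SE 0.347). Whether the counting used the strand is not given in the sources used here, so reads of the 2 genes cannot be told apart.

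The next genes on the higher side were broadly expressed. Ndrg4 had a log2FC of 0.80 (SE 0.187), with at least 10 CPM in 16 of 16 and 60 of 60 neurons. Atp6v1b2, a subunit of the vesicular proton pump, had 0.77 (SE 0.194) and the neuropathy target esterase gene Pnpla6 1.53 (SE 0.388). Tcf4, a basic helix-loop-helix factor gene, had 2.26 (SE 0.605), with sums of 108, 293 and 1186 CPM against 26.6, 68.8 and 220 CPM. Nrsn1, a gene of neuronal vesicles, had 1.46 (SE 0.419) and the Krueppel-like factor gene Klf6 1.20 (SE 0.352). All of these but Ndrg4, which was higher in 6 sets, were higher in 7 of 7 sets.

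On the lower side the leading genes were mostly at or near 0 in the marker-high neurons. Nup155, a nuclear pore gene, had sums of 0.399, 0.819 and 7.79 CPM against 8.10, 51.3 and 65.5 CPM. Its log2FC was -4.76 (SE 1.03), and at least 10 CPM were found in 2 of 16 and 29 of 60 neurons. 1190002N15Rik had -7.60 (SE 1.58) and Arid3b -6.16 (SE 1.29). The remaining 5 genes had 1 to 5 reads in all 16 marker-high neurons together: Gm43662 had 1, Gm36952 4, Ctbs 3, Gm37537 3 and Gm42636 5. In the other neurons of the fit they had 1854, 3342, 2359, 1242 and 495 reads. These totals are not scaled for depth and come from 60 neurons against 16. They were also uneven over sets: Gm43662 had 38.5 CPM in the other neurons of 25Q RGFP109 batch 3 and 1.06 to 25.5 CPM in those of the remaining sets.

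Of the 71 named genes, 18 share exon positions with another gene, so their counts are less certain. These are Nos1, Dlx1, Chrm1, Ppp1r1b, Scn9a, Kcnma1, Dlg2, Cnp, Csf1r, Cux1, Nrn1, Top2a, Tspyl4, Gm47512, Ctbs, Arid3b, Slc32a1 and Lhx6.

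Whether the class difference itself depended on the transgene or the drug was tested on the 6 sets of 25Q and 97Q neurons that held both classes. For 97Q against 25Q, edgeR with Benjamini-Hochberg adjusted p-values called 0 of 13222 genes (0.0%), with 458 at an unadjusted p under 0.05 (3.46%). For RGFP109 against vehicle it called 0 (0.0%), with 217 at an unadjusted p under 0.05 (1.64%). Each 97Q group had 1 marker-high neuron, in batch 3, so these fits rest on 2 marker-high neurons of 97Q and have 3 residual degrees of freedom.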

How the data were processed

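The deposited table gives raw counts per gene and cell for 127 cells and 53465 genes, of which 191 had no symbol. Per the submitters' processing notes, the authors used FastQC, Trimmomatic 0.36, STAR 2.5 and HTSeq 0.9.1 with GRCm38 (mm10). Whether reads were counted by strand is not given in the sources used here. Gene positions are those of the reference annotation of that build. Reads carried no molecular identifiers, so intervals and floors cover counting error only. The series text speaks of 117 neurons; 3 batches are named in the labels. No 2 columns were identical, and the highest correlation between cells was 0.855.

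Each cell was scaled to CPM, and neurons with at least 200 CPM over the 9 marker genes formed the marker-high class. Members and gene lists were chosen with earlier results of these data known. Since no label names an animal or culture, counts were summed per class, group and batch, and 14 sums from 7 sets entered edgeR 4.0.16 (R 4.3.3; TMM factors, low-count filter, robust quasi-likelihood test, a block per set, 6 residual degrees of freedom), with Benjamini-Hochberg adjustment at 0.05 over 13457 genes. The 9 marker genes were left out of the test. DESeq2 1.42.0, limma 3.58.1, other factors and filters, other floors, thinning to 900000 counts and leaving out cells or batches served as alternatives. Equal weighting and the splits by leading gene were added after the data were seen. Sums had 1221741 to 71957878 counts. On simulated counts for this comparison (13457 genes), the test recovered 43 of 100 genes changed 16-fold and 11 of 100 changed 4-fold, with 1 false call. The changed genes were drawn only from those with an average above 10 CPM, so recovery of rarer genes was not simulated. Shares were compared by exact permutation within batch (Python 3.11.15). Genes were named by rule: the 9 marker genes; the 2 of each list with the smallest p; the 8 with the smallest p outside the lists in each direction; and Gad1, Gad2, Slc32a1, Ppp1r1b, Lhx6 and Htt.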

Additional observations from a re-analysis of the deposited data

Results flagged for a closer look

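Among the 9 empty vector neurons, neuron 2 had a marker sum of 1873.5 CPM, nearly all Calb2, and the next highest 612 CPM. It was set apart by its distance to the others relative to the range of the group. The marker sum is also the value that chose the class, so this flag is a description only. The difference in Rxrg between marker-high and other neurons was 0 in 25Q RGFP109 batch 2, where neither class had a count, and lay below 0 in the remaining 6 sets. These were 2 of 14 such checks for a value far from its group, of which chance marks about 1 in 20. Among the astrocytes, which entered no comparison of classes, astrocyte 9 had a marker sum of 428.39 CPM, all of it Npy.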

How the results depend on the processing

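The class comparison gave 0 calls by edgeR, and 0 under 15 of its alternatives. DESeq2 called 854 genes, limma voom 4, and edgeR 1 (Synpr) without the empty vector. Leaving out each batch gave 0 to 7 calls, the 7 without batch 3, where 2 sets and 1 residual degree of freedom were left. Replacing the replicate block by terms for group and batch gave 0 calls for the classes, 44 for class by repeat length and 0 for class by RGFP109. DESeq2 gave 475 and 179 calls for those 2 interactions, which were not run without batch 3 because both 97Q sets with both classes lie in it. The share difference between 97Q and 25Q was -30.4 points with a floor of 100 CPM (exact permutation p = 0.0185). It was -21.5 to -15.2 points when each batch was left out, and p was 0.0736 in the exact permutation without the replicate block. Of the 62 named genes tested, 34 passed under DESeq2, and 16 changed sign under at least 1 of 19 settings. In log2, over the batches left out, the values ran from -7.04 to 4.01 for Nts, -6.79 to 0.54 for Htr7, -1.19 to 0.99 for Cd68, -0.35 to 1.81 for Csf1r, -1.43 to 0.53 for Nrn1, -0.53 to 1.41 for Slc32a1, -2.20 to 1.296 for Lhx6 and -0.88 to 0.99 for Htt. With limma voom, Acta2 stood at 1.36, Nrn1 at 0.29, Slc32a1 at 0.064 and Htt at 0.15. Summed per batch, with batch as replicate block, Nrn1 stood at 0.48, Slc32a1 at 0.57 and Htt at 0.35, and without the replicate block Acta2 at 0.081. With neurons weighted equally, Nr4a1 stood at 0.0079, Cd68 at 0.29, Acta2 at 0.063, Nrn1 at 0.19, Slc32a1 at 0.28, Lhx6 at 0.76 and Htt at 0.081. Without glial-rich neurons, a fit that also lost the set of 97Q vehicle batch 3, Gad1 stood at -0.016, Cd68 at 0.77, Slc32a1 at 0.32 and Lhx6 at 0.88. With a floor of 100 CPM, Cnp stood at -0.15 and Cd68 at 0.25. With 500 CPM, Olig2 stood at -0.36 and Slc32a1 at 0.59. Without Kit and Th in the rule, Igf1 stood at -1.25, Olig2 at -1.26 and Cd68 at 0.17. Without the empty vector, Csf1r stood at -0.34. With Calb2-led neurons alone, Igf1 stood at -1.07 and Csf1r at -1.34. Without them, Hap1 stood at -0.74, Eno2 at -0.082, Cd68 at 0.83, Nrn1 at 1.39 and Slc32a1 at 0.47. For these genes the cause was not tested. With 16 marker-high neurons, 1 to 4 in a sum, genes read in few neurons limit the precision.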
